A study of Mus musculus with 19 samples.

Results

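The genes of the cytosolic ribosomal proteins were examined in cerebral microvessels of mice exposed to smoke, to electronic cigarette vapour or to room air. Members were the protein-coding genes whose mouse symbol is Rpl or Rps followed by a number, with Rpsa, Rplp0, Rplp1 and Rplp2, leaving out pseudogenes and the kinases named after Rps6. This gave 83 genes of the 39179 listed in the count tables, 51 named for the large subunit and 32 for the small subunit. The choice used names only and no measured value. The annotation placed 5 further symbols that match the pattern among pseudogenes (Rps3a2, Rps3a3, Rps4l, Rps12l1 and Rpl6l), and these were left out.

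Messenger RNA was sequenced as single-end, strand-specific libraries of polyadenylated RNA from 19 samples in 5 groups. Each was labelled as cerebral microvessel, the small vessels whose endothelium forms the blood-brain barrier. The groups were smoke (titled smoke, n = 4), an electronic cigarette with nicotine (Nic, n = 3), an electronic cigarette without nicotine (Nic-free, n = 4) and 2 sets with the label of room air, titled air (n = 4) and Room-air (n = 4). All groups were male C57BL/6 mice, bought at 7 weeks of age, and the labels give neither a length of exposure nor an age at collection. No label links an air set to an exposure, so each exposed group is set against both air sets. The labels do not say whether replicates are separate animals, and any p-value therefore covers no more than sample-to-sample spread, which may be technical.

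A ribosome joins a large and a small subunit, each a core of ribosomal RNA clothed with many proteins that are needed in near equal numbers. The messenger RNAs of these proteins are short and abundant, and most begin with a run of pyrimidines, the 5′ terminal oligopyrimidine (TOP) motif. Through that motif mTORC1 and the binding protein LARP1 set how strongly they are translated. The genes are transcribed in nearly every cell type, and in brain the levels differ between neurons, glia and vessel cells.

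Upstream sequences are shown for 8 members, because the members moved largely together in these samples and the sequences let members that were called in several comparisons be read beside 3 genes called in none. Rpl38, Rpl39 and Rps28 were each among the 3 largest differences of a comparison below. Rps6 encodes the protein that the S6 kinases phosphorylate, and Rps19 was called in 5 comparisons between groups. Those comparisons share libraries, so repeated calls are not separate evidence. Rps27l, Rpl7l1 and Rpl10a passed the threshold in no comparison between groups. Each window runs from 120 bases before to 30 bases after the most 5′ annotated start (RefSeq, GRCm38.p6), on the gene's strand. Capitals mark CTTTCC and CTCTTTC, pyrimidine runs of the TOP kind searched here on the gene's strand, and CGGAAG or its complement CTTCCG, the core bound by ETS factors.
Rpl38 (chr11:114668460-114668609, plus strand): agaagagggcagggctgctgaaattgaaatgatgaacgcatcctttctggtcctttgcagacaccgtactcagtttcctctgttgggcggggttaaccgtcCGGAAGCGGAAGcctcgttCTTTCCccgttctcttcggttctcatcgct
Rpl39 (chrX:37085193-37085342, minus strand): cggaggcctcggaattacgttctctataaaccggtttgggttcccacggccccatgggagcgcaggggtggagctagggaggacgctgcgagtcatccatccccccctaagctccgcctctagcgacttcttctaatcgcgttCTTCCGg
Rps28 (chr17:33824533-33824682, minus strand): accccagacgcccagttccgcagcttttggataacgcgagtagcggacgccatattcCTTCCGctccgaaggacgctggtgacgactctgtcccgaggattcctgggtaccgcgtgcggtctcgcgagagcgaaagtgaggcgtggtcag
Rps6 (chr4:86857338-86857487, minus strand): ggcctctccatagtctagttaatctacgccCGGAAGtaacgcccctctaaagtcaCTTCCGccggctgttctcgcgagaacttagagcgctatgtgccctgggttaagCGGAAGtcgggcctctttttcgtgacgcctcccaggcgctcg
Rps19 (chr7:24884472-24884621, plus strand): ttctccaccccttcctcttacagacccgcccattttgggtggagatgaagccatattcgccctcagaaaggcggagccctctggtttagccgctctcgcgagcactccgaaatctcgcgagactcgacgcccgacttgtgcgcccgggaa
Rps27l (chr9:66945966-66946115, plus strand): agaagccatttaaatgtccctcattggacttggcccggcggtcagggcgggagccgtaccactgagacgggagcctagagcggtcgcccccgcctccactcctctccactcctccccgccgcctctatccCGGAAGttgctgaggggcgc
Rpl7l1 (chr17:46782627-46782776, minus strand): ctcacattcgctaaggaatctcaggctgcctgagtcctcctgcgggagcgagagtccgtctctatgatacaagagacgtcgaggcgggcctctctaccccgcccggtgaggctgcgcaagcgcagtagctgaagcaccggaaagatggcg
Rpl10a (chr17:28328351-28328500, plus strand): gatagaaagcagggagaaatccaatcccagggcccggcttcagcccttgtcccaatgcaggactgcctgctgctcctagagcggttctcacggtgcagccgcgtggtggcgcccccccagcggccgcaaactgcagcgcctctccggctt
In Rpl38 the run CTTTCC started at the first base of the RefSeq transcript, and CGGAAG stood 19 and 13 bases upstream of it. Rps6 held CGGAAG at 90 and 12 bases upstream and CTTCCG at 65 bases upstream. Its RefSeq transcript starts with ctctttttc, a pyrimidine run left in lower case because only the exact letters given above were searched. Rps28 held CTTCCG at 63 bases upstream, Rpl39 held CTTCCG from base 24 of the transcript, and Rps27l held CGGAAG from base 11. Rps19, Rpl7l1 and Rpl10a held none of the searched motifs in their windows. GENCODE places the 5′ end of the gene further upstream than this RefSeq start for some members, by 56 bases for Rpl38, 180 for Rpl39, 45 for Rps6, 221 for Rps19 and 16 for Rpl7l1, and at the same base for Rps28, Rps27l and Rpl10a. By that annotation the marked letters of Rpl38 lie inside the gene, as do the pyrimidine run of Rps6 and the CGGAAG nearest its start. The place of these letters relative to the start therefore depends on the annotation.

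Promoters, taken as the 250 bases before and 50 after the most 5′ start, were matched for 63 of the 83 members and for 27025 genes in all. CGGAAG on either strand was found in 66.7% of the members' promoters and 17.2% of all promoters. CTTTCC on the gene's strand was found in 33.3% of members and 14.1% of all, and CTCTTTC on the gene's strand in 19% of members and 3.93% of all. The 2 runs can overlap in their shared letters, since CTCTTTC followed by C holds both. Other pyrimidine runs, such as that at the start of Rps6, were not searched. TATAAA on either strand was found in 11.1% of members and 14.2% of all.

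The members together held 148177 to 354543 counts per library, out of 7.94 to 30.2 M counts in genes (M is 1000000). Depth differed between the groups, at 7.94 to 12.6 M in smoke, 21.8 to 28.4 in Nic, 15.2 to 19.1 in Nic-free, 9.76 to 13.5 in air and 25.3 to 30.2 in Room-air. Markers of the labelled tissue were present, since the 8 endothelial markers held 0.103 to 0.416% of counts and none was at 0 in all libraries. Markers of other cells were also present, the 8 neuronal markers at 0.523 to 0.962% and the 5 oligodendrocyte markers at 0.889 to 3.13%. Reads outside annotated features were 28.9 to 33.2% in smoke, 33.0 to 38.4% in Nic, 38.9 to 45.2% in Nic-free, 33.6 to 37.5% in air and 28.7 to 33.4% in Room-air.

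Ribosomal protein genes took the smallest share of counts in nicotine vapour and the largest in the air set. Their share was 1.53, 1.96, 1.21 and 1.51% in smoke 1 to 4, and 0.957, 0.755 and 1.22% in Nic 1 to 3. It was 1.39, 1.65, 1.59 and 1.38% in Nic-free 1 to 4, against 1.49, 1.99, 1.78 and 1.47% in air 1 to 4 and 1.16, 1.19, 1.10 and 1.16% in Room-air 1 to 4. Nic 1 and Nic 2 lay below every other library, while Nic 3 lay above the 4 Room-air libraries, and the smoke, Nic-free and air ranges each lay wholly above the Room-air range. As a share of all reads in the files, in place of reads in genes, the members held 0.857 to 1.35% in smoke, 0.466 to 0.813% in Nic, 0.795 to 0.963% in Nic-free, 0.941 to 1.23% in air and 0.746 to 0.842% in Room-air. On that basis smoke and air stayed above Room-air, while Nic-free overlapped it and Nic 3 lay inside its range. Group means were 1.56 ± 0.308% in smoke, 0.978 ± 0.234% in Nic, 1.504 ± 0.137% in Nic-free, 1.68 ± 0.250% in air and 1.15 ± 0.0373% in Room-air (SD). The 95% Wilson interval of a library's share was at most 0.0193 percentage points wide, which covers counting error only.

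The 2 subunits moved together. Large-subunit genes held 0.904 ± 0.173% of counts in smoke, 0.575 ± 0.134% in Nic, 0.877 ± 0.0807% in Nic-free, 0.967 ± 0.137% in air and 0.678 ± 0.0207% in Room-air. Small-subunit genes held 0.651 ± 0.135% in smoke, 0.403 ± 0.0999% in Nic, 0.627 ± 0.0562% in Nic-free, 0.714 ± 0.113% in air and 0.474 ± 0.0174% in Room-air. The ratio of large to small was 1.39 ± 0.0228 in smoke, 1.43 ± 0.0253 in Nic, 1.40 ± 0.0112 in Nic-free, 1.36 ± 0.0402 in air and 1.43 ± 0.0204 in Room-air. In bulk samples, fewer cells of a type and less RNA per cell cannot be told apart.

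**Figure D1:**
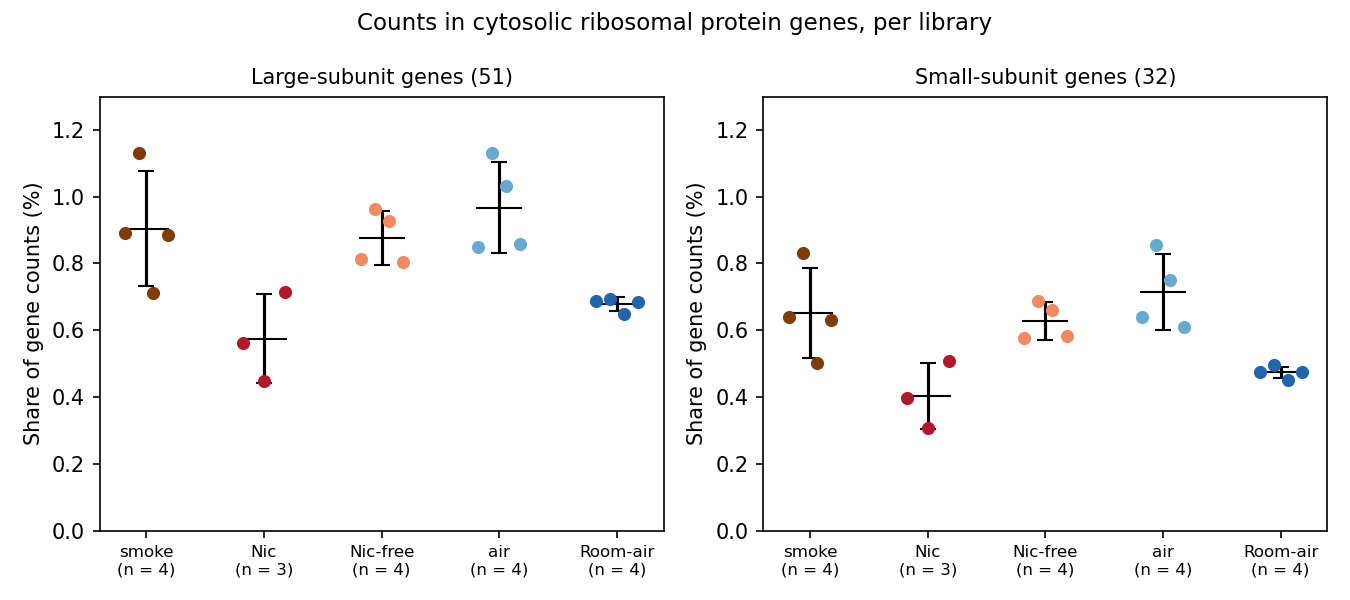
Share of gene counts (%, vertical axis) in the 51 large-subunit genes (left panel) and the 32 small-subunit genes (right panel); each point is a library, and bars give the group mean and SD. Both panels show the same order, with Nic lowest, at means of 0.575 and 0.403%, and air highest, at 0.967 and 0.714%.

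Compared per kilobase of merged exons, levels of the members spanned a wide range. Rplp1, an acidic protein of the stalk that recruits translation factors, ranked first at 1327 CPM (counts per 1000000 gene counts of a library) per kb, as a mean over 19 libraries. Rps15, a small-subunit protein near the decoding centre, followed at 799, then Rps21 at 383, Rps29 at 307 and Rpl36 at 274 CPM per kb. The lowest were paralogs of other members, with Rpl7l1 at 8.94, Rpl3l at 0.528, Rpl39l at 0.228 and Rpl10l at 0.00527 CPM per kb. Per kilobase of the main mRNA alone the order was partly different. Rplp1 at 1327, Rps15 at 1007 and Rps21 at 787 CPM per kb were again the first 3, followed by Rps27 at 576 and Rps29 at 546, and Rpl36, at 274 CPM per kb, was at rank 15.

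The members lie on many chromosomes. In the GENCODE annotation of GRCm38, members with large differences below are Rpl38 (ENSMUSG00000057322, chr11:114668524-114672331, plus strand), Rpl39 (ENSMUSG00000079641, chrX:37082520-37085402, minus strand), Rpl23a (ENSMUSG00000058546, chr11:78180932-78183584, minus strand) and Rps28 (ENSMUSG00000067288, chr17:33819027-33824562, minus strand). Rplp1 is ENSMUSG00000007892, chr9:61913284-61914542, minus strand, and Rpsa is ENSMUSG00000032518, chr9:120127689-120132369, plus strand.

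Of the 83 members, 81 passed the filter on low counts in every comparison and 80 had a mean of at least 10 CPM. Rpl10l, a testis paralog of Rpl10, had 1 count in air 2 and none in the other 18 libraries, where a count of 0 allows up to 0.0994 to 0.378 CPM. Rpl39l, a testis paralog of Rpl39, had 0 to 7 counts per library. Neither was tested. Rpl3l, the paralog of Rpl3 known from heart and skeletal muscle, passed the filter at 0.514 to 1.24 CPM.

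Nicotine-free vapour was first set against Room-air, though no label gives Room-air as its control. The air set, also labelled as room air, lay above Room-air too, as given below. Ribosomal protein messages were higher, 43 of 81 members rising and 0 falling (edgeR quasi-likelihood test, Benjamini-Hochberg adjusted p under 0.05 over 17235 genes), where 11.3% of all genes tested rose. The members' median log2 fold change was 0.40, against 0.00 over all genes tested. The 43 ran from 0.33 to 0.80, and 25 of 49 large-subunit and 18 of 32 small-subunit genes were among them. In 57 of 81 members every Nic-free library was above every Room-air library, which held for 11.2% of all genes tested.

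Rpl38, a large-subunit protein known in mouse for its part in translating a set of Hox messages, had 88.5, 115, 106 and 98.0 CPM in Nic-free libraries, against 57.6, 63.5, 57.7 and 63.5 CPM in Room-air libraries. The groups did not overlap, and the log2 fold change was 0.80 ± 0.14 (SE; edgeR adjusted p = 0.00217). Rpl23a, which sits where the new protein chain leaves the ribosome, had 112, 139, 120 and 124 CPM in Nic-free libraries, against 81.0, 73.1, 70.9 and 80.2 CPM in Room-air libraries. It too was apart in all 8 libraries, at 0.75 ± 0.10 (edgeR adjusted p = 0.000395). Rps28, a small-subunit protein near the exit of the messenger RNA, had 85.6, 99.1, 90.9 and 84.2 CPM in Nic-free libraries, against 50.9, 63.7, 51.1 and 64.2 CPM in Room-air libraries, a log2 fold change of 0.70 ± 0.14 (edgeR adjusted p = 0.00364). The smallest called differences were those of Rpl22 (0.33 ± 0.09), Rpl5 (0.34 ± 0.10) and Rps4x (0.36 ± 0.11). Without Nic-free 2, the library with the highest share in its group, 23 members rose, against 6.73% of all genes tested, and in a fit of all 19 libraries 27 rose, against 9.86% of all genes.

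Nicotine vapour against Room-air gave no call. Of 81 members 0 rose and 0 fell by edgeR, where 3.89% of all genes tested passed in either direction. At an unadjusted p under 0.05, 0 members were higher and 15 lower (all genes 12.7% and 11.7%). DESeq2 called 2 lower, where 5.69% of all genes tested were lower. The median log2 fold change was −0.24, against 0.03 over all genes, and 80 of 81 members had a negative value. This rests on Nic 3: without it 52 members were called, all lower, with a median of −0.43, while the share of all genes tested that were lower went up as well, to 7.71% without Nic 3, against 2.67% with it. Rpsa, a small-subunit protein also described as a laminin receptor, had 167, 164 and 227 CPM in Nic libraries, against 249, 231, 216 and 236 CPM in Room-air libraries. Nic 1 and Nic 2 lay below all Room-air libraries and Nic 3 lay among them, and the log2 fold change was −0.35 ± 0.12 (edgeR adjusted p = 0.0983).

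The direct comparison of the vapours was Nic against Nic-free, whose labels differ in nicotine, and here the ribosomal protein genes fell as a block. These groups also differed in depth, in reads outside annotated features and in markers of cell types. The part of nicotine cannot be told apart from these. Of 81 members 71 fell and 0 rose, where 12.4% of all genes tested fell. The median log2 fold change was −0.66, against 0.02 over all genes, and the 71 ran from −1.03 to −0.34. They included 42 of 49 large-subunit and 29 of 32 small-subunit genes, and in 51 of 81 members every Nic library was below every Nic-free library, which held for 13.2% of all genes tested. Without Nic 1 the count was 46, and 6.64% of all genes tested fell.

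Rplp1 had 379, 284 and 512 CPM in Nic libraries, against 679, 829, 860 and 678 CPM in Nic-free libraries. All Nic values were lower, Nic 2 the lowest, and the log2 fold change was −1.03 ± 0.17 (edgeR adjusted p = 0.00119). The other proteins of the stalk fell with it, Rplp0, the base of the stalk, by 0.58 ± 0.13 on the log2 scale and Rplp2, the partner of Rplp1, by 0.86 ± 0.20. Rpsa had the 3 Nic values given above, against 320, 366, 356 and 327 CPM in Nic-free libraries, a log2 fold change of −0.95 ± 0.12 (edgeR adjusted p = 0.000287). Rps15 had 292, 238 and 383 CPM in Nic libraries, against 505, 604, 592 and 487 CPM in Nic-free libraries, a log2 fold change of −0.92 ± 0.15 (edgeR adjusted p = 0.00083). For both, no Nic library reached the lowest Nic-free library. The smallest called falls were those of Rpl7 (−0.37 ± 0.11), Rpl22 (−0.36 ± 0.10) and Rps15a (−0.34 ± 0.11).

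Genes with roles beyond the ribosome or in its assembly were read one by one in Nic against Nic-free, and the differences between them were not tested. Rpl5 and Rpl11, which hold the p53 regulator Mdm2 when ribosome assembly fails, fell by 0.45 ± 0.11 and 0.70 ± 0.12 on the log2 scale. Rps19, whose human gene is the one most often mutated in Diamond-Blackfan anaemia, fell by 0.80 ± 0.12, and Rps6 fell by 0.51 ± 0.13 (edgeR adjusted p = 0.0133). Rps6 had 78.5, 61.9 and 101 CPM in Nic libraries, against 109, 116, 112 and 99.1 CPM in Nic-free libraries, so Nic 3 lay within the Nic-free range. Rpl41, the smallest ribosomal protein, fell by 0.67 ± 0.17. Rpl10, which joins the large subunit late and prepares it for joining the small one, was at −0.39 ± 0.14 (edgeR adjusted p = 0.0545).

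Smoke against air gave no call among the members. Of 81 members 0 rose and 0 fell by edgeR, where 1.6% of all genes tested passed in either direction. At an unadjusted p under 0.05, 1 member was higher and 3 lower (all genes 11.2% and 8.09%). DESeq2 called 1 lower, where 2.55% of all genes tested were lower. The median log2 fold change was −0.05, against 0.02 over all genes. Rpl39, a small protein lining the exit tunnel, had the lowest value. It had 66.0, 61.6, 43.9 and 54.4 CPM in smoke libraries, against 71.0, 146, 95.1 and 73.8 CPM in air libraries. All smoke libraries were below all air libraries, with a log2 fold change of −0.75 ± 0.24 (edgeR adjusted p = 0.144).

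**Figure D2:**
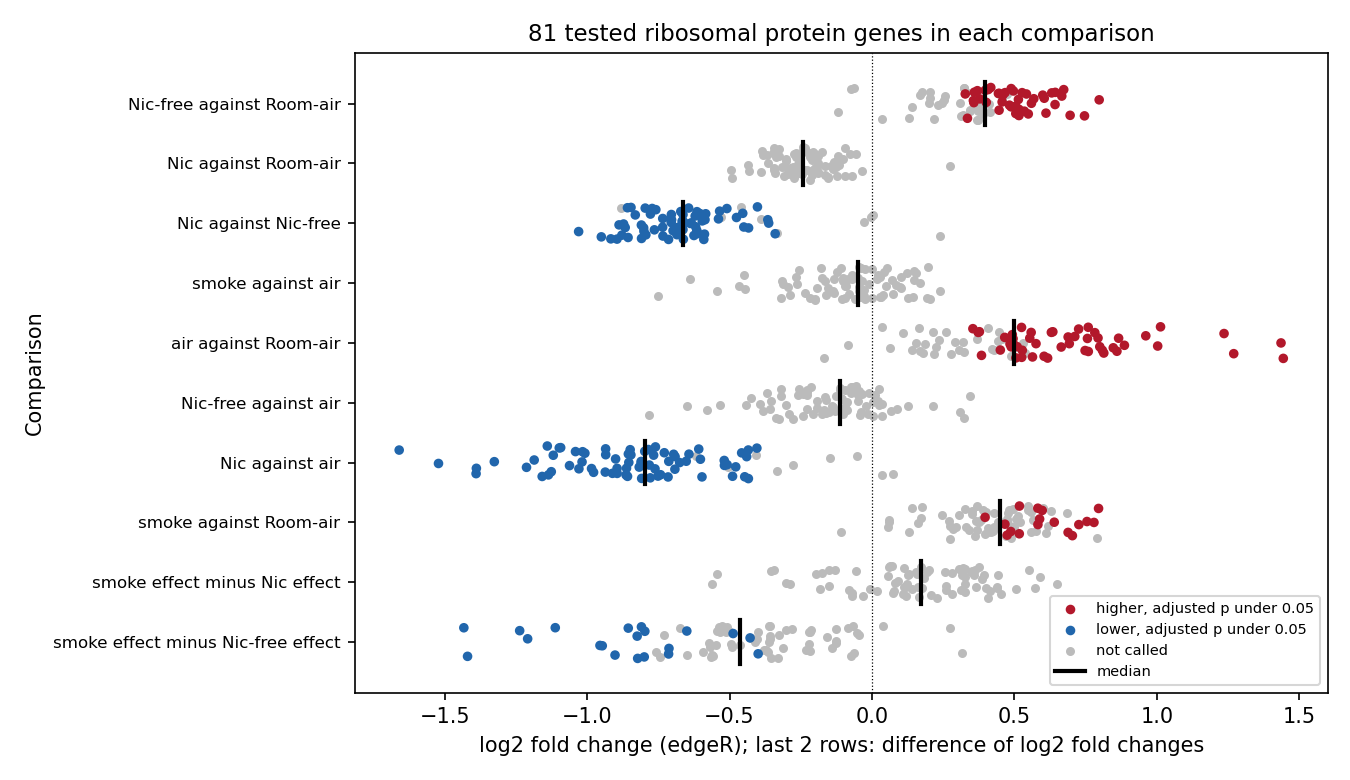
Log2 fold change (horizontal axis, edgeR) of each of the 81 tested members in 10 comparisons (vertical axis); red and blue points passed an adjusted p under 0.05, grey points did not, and black bars are medians. Members sit right of 0 in Nic-free against Room-air (median 0.40) and air against Room-air (0.50), left of it in Nic against Nic-free (−0.66) and Nic against air (−0.80), and around it in smoke against air (−0.05).

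The 2 sets labelled as room air also differed from each other. In air against Room-air 50 of 81 members were higher and 0 lower, where 10.7% of all genes tested were higher, and the members' median log2 fold change was 0.50, against −0.00 over all genes. Rpl39 had the 4 air values given above, against 34.2, 37.0, 37.2 and 37.2 CPM in Room-air libraries. No value was shared, and the log2 fold change was 1.44 ± 0.23 (edgeR adjusted p = 0.00054). Rpl38 had 134, 226, 163 and 116 CPM in air libraries, against the Room-air values of 57.6 to 63.5 CPM, with a log2 fold change of 1.44 ± 0.23 (edgeR adjusted p = 0.000655). Rpl23a had 149, 242, 185 and 142 CPM in air libraries, against 70.9 to 81.0 CPM in Room-air libraries, with a log2 fold change of 1.27 ± 0.18 (edgeR adjusted p = 0.000186). For both, air 2 was the highest of the 19 libraries. The smallest called differences were those of Rpl6 (0.35 ± 0.11), Rpl5 (0.37 ± 0.10) and Rps15a (0.38 ± 0.11). Without air 2 the count was 33, and 6.58% of all genes tested were higher.

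The calls of an exposed group were not the same against the air set as against the Room-air set. Nic-free against air had 0 of 81 members called in either direction by edgeR, where 4.22% of all genes tested passed. The members' median log2 fold change was −0.11. At an unadjusted p under 0.05, 3 were higher and 12 lower (all genes 11% and 9.37%). DESeq2 called 2 lower, where 2.57% of all genes tested were lower. Rpl39 was lowest, with 51.6, 68.3, 55.9 and 48.2 CPM in Nic-free libraries, below the 71.0 to 146 CPM of the air libraries, at −0.78 ± 0.22 (edgeR adjusted p = 0.0554). Without air 1 there was 1 member lower, where 0.971% of all genes tested were lower. Without air 2 there was 1 higher, where 1.19% of all genes tested were higher.

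Nic against air had 72 of 81 members lower and 0 higher, where 14.6% of all genes tested were lower, with a median of −0.80. Rpl39 had 36.6, 20.7 and 39.5 CPM in Nic libraries, against 71.0 to 146 CPM in air libraries, a log2 fold change of −1.66 ± 0.25 (edgeR adjusted p = 0.000224). Rpl38, at 63.8, 40.8 and 71.6 CPM in Nic libraries, was at −1.52 ± 0.26, and Rpl23a, at 69.4, 65.3 and 82.0 CPM in Nic libraries, at −1.39 ± 0.20. In all 3 genes every Nic library was below every air library. The smallest called falls included those of Rpl10 (−0.43 ± 0.14) and Rpl18 (−0.40 ± 0.14). Thus Nic was below both Nic-free and air, while against Room-air the call depended on Nic 3.

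Smoke against Room-air had 17 of 81 members higher and 0 lower, where 3.54% of all genes tested were higher, with a median of 0.45. Rpl23a had 131, 171, 94.5 and 112 CPM in smoke libraries, all above the 70.9 to 81.0 CPM of Room-air, with a log2 fold change of 0.80 ± 0.18 (edgeR adjusted p = 0.0172). Rpsa had 377, 515, 283 and 333 CPM in smoke libraries, also above every Room-air library, at 0.75 ± 0.17 (edgeR adjusted p = 0.0174). Rpl31, a large-subunit protein at the tunnel exit, had 185, 247, 104 and 157 CPM in smoke libraries, against 102, 120, 96.9 and 102 CPM in Room-air libraries, at 0.78 ± 0.22 (edgeR adjusted p = 0.0467), with smoke 3 inside the Room-air range. The smallest called differences were those of Rpl7 (0.40 ± 0.12), Rps26 (0.47 ± 0.12) and Rps9 (0.47 ± 0.14). This count moved with single libraries and settings, as did the share of all genes tested that were higher. It was 0 without smoke 2 (all genes 0.809%), 0 without Room-air 3 (1.14%) and 54 without smoke 3 (7.08%), and 4 to 6 without any other single library of these groups. It was 10 with no filter on low counts (1.45%), 1 in a fit of these 2 groups alone (0.309%) and 38 by DESeq2 (5.49%).

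The difference between effects was tested directly, with the smoke effect taken as smoke against air and each vapour effect as the vapour against Room-air. No label gives this pairing of exposures with air sets. For the smoke effect minus the Nic-free effect, 20 of 81 members were lower and 0 higher, where 10.3% of all genes tested were lower, with a median difference of −0.46. Rpl38 had a difference of −1.43 ± 0.32 (edgeR adjusted p = 0.00562), Rpl39 of −1.42 ± 0.32 (0.00505) and Rps28 of −1.24 ± 0.29 (0.00703). The smallest called differences were those of Rpl22l1 (−0.49 ± 0.16), Rpl22 (−0.43 ± 0.14) and Rpl5 (−0.40 ± 0.14). The count was 45 without smoke 2, and 13 without air 2 or without air 3, where 13.2, 8.45 and 7.72% of all genes tested were lower. The contrast takes a different air set for each effect, and those sets differ by a median of 0.50. Against the same Room-air libraries, the members' median was 0.45 in smoke and 0.40 in Nic-free. For the smoke effect minus the Nic effect 0 of 81 were called by edgeR, where 5.59% of all genes passed in either direction. At an unadjusted p under 0.05, 3 were higher and 0 lower (all genes 12.7% and 12.6%). DESeq2 called 0 (all genes 10.6% in either direction), and 12 were higher without Nic 3 (all genes 7.12%).

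**Figure D3:**
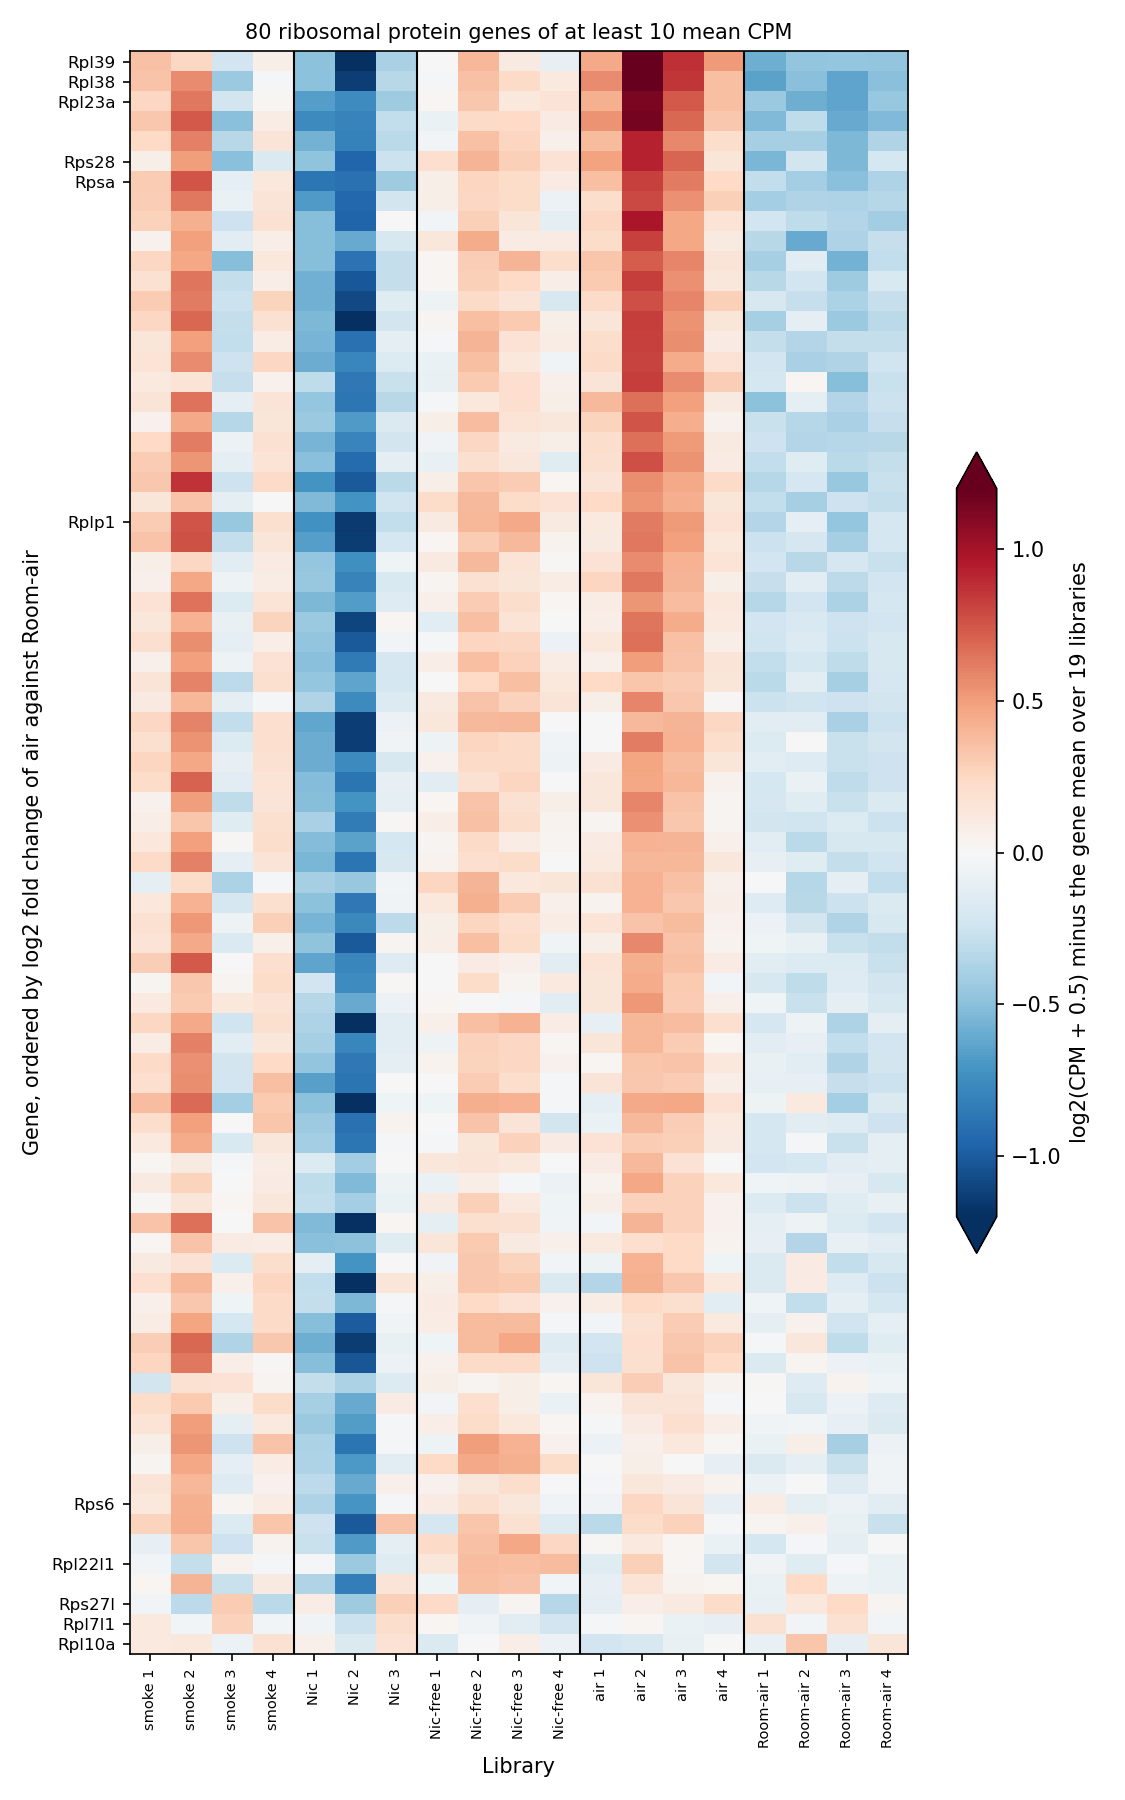
Log2(CPM + 0.5) minus each gene's mean over 19 libraries (colour, limits at −1.2 and 1.2) for the 80 members of at least 10 mean CPM (rows, labelled for those of the CPM plots and ordered by the log2 fold change of air against Room-air) in each library (columns). Whole columns share a colour, with Nic 2 the bluest and air 2 the reddest at the top, while Rps27l, Rpl7l1 and Rpl10a at the bottom do not follow.

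Within groups, too, the members varied together from library to library. After each group's mean was subtracted, a member's log2 CPM correlated with the mean of the other members at a median Pearson r of 0.921 over the 19 libraries, and 72 of 80 members had an r above 0.8. The highest r was 0.987. The libraries share depth and composition with all of their genes, so these values are a description. The lowest were Rps27l, a paralog of Rps27 known as a p53 target (r = 0.0941), Rpl7l1, a paralog of Rpl7 found in ribosome precursors (0.213), Rpl22l1, the paralog that Rpl22 represses in mouse (0.320), Rpl15 (0.343) and Rpl10a (0.511).

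The non-members most like the members' mean by the same measure were Gng13 (0.960), a G protein subunit, Drap1 (0.954), a corepressor of transcription, Rack1 (0.945), a scaffold on the small subunit, H2afv (0.943), a histone variant, and Tyrobp (0.942), an adaptor of microglia. Pfdn5 (0.942), Fau (0.936), Nedd8 (0.930), Naca (0.929) and Bola2 (0.927) followed. Of 10940 non-members of at least 10 mean CPM, 24 had an r above 0.9, and their median was −0.137. The 10 genes have main mRNAs of 564 to 1633 bases.

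Paralogs were compared with the genes they are named after. Rps27l had 14.6, 12.0, 18.6 and 11.9 CPM in smoke, 16.0, 11.1 and 18.4 in Nic, 17.7, 13.9, 15.4 and 11.7 in Nic-free, 13.9, 15.9, 16.2 and 17.5 in air and 14.1, 16.4, 17.8 and 15.4 CPM in Room-air. All 5 groups overlapped, and its log2 fold change was −0.03 ± 0.17 in Nic against Nic-free, where Rps27 was at −0.59 ± 0.18. Rpl7l1 was at 0.00 ± 0.12 there and Rpl7 at −0.37 ± 0.11. Rpl3l was at 0.24 ± 0.33 and Rpl3 at −0.76 ± 0.12. These differences between paralogs were not tested.

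Rpl22l1 was called in Nic-free against Room-air but not in air against Room-air. It had 26.4, 31.1, 30.7 and 31.2 CPM in Nic-free libraries, against 23.2, 21.6, 23.4 and 22.5 CPM in Room-air libraries, and rose by 0.45 ± 0.10 (edgeR adjusted p = 0.0062). Its air libraries had 21.5, 29.2, 24.2 and 20.5 CPM, which overlapped those of Room-air (0.11 ± 0.11, edgeR adjusted p = 0.476). Rpl22 itself rose both in Nic-free against Room-air (0.33 ± 0.09) and in air against Room-air (0.38 ± 0.10, edgeR adjusted p = 0.0095). Members called in none of the 8 comparisons between groups were Rpl3l, Rpl7l1, Rps27l, Rpl10a, Rpl27a, Rpl35 and Rps16, and 15 members were called in 5 of them, the most of any. The 8 comparisons reuse the same 5 groups, so repeated calls are not separate evidence. How often all genes tested were called in as many was not counted. Rpl10a, Rpl27a, Rpl35 and Rps16 are named here after their values were seen.

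**Figure D4:**
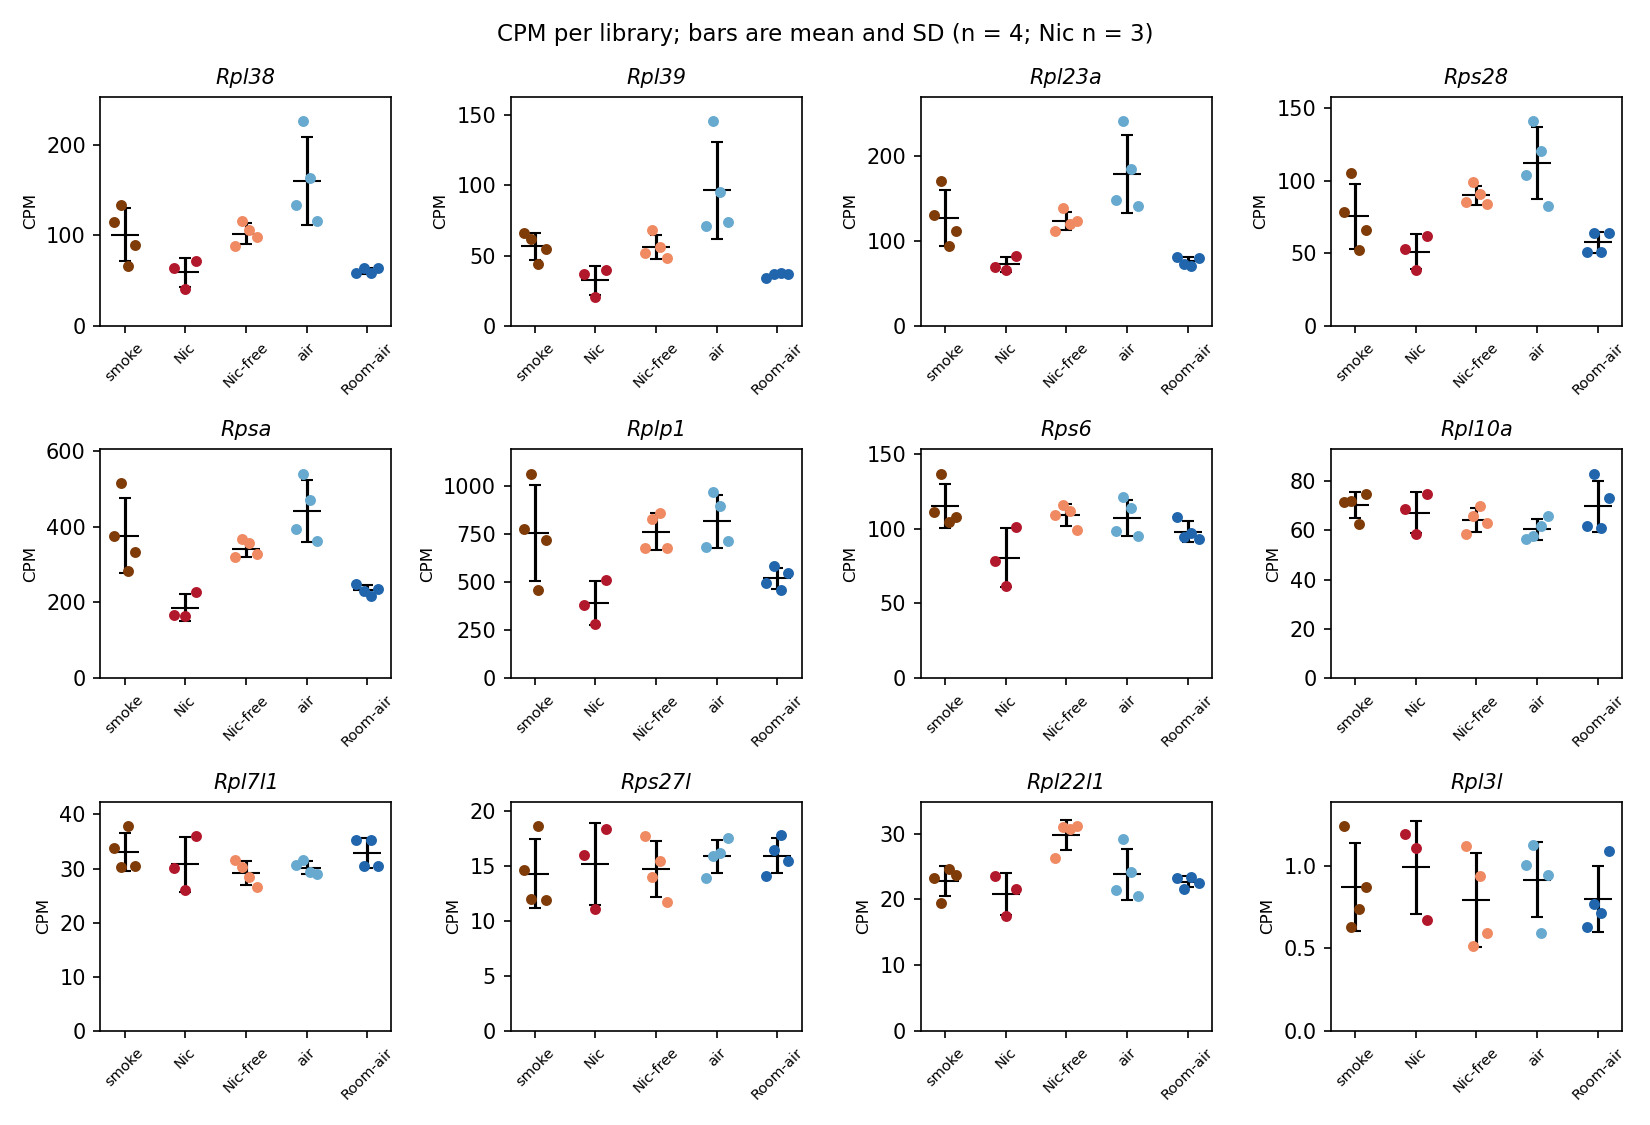
CPM (vertical axis) of 12 members in each library (points) by group (horizontal axis), with mean and SD as bars. Rpl38, Rpl39, Rpl23a, Rps28, Rpsa and Rplp1 are lowest in Nic and Room-air and highest in air, whereas Rpl10a, Rpl7l1, Rps27l and Rpl3l overlap in all 5 groups and Rpl22l1 is highest in Nic-free.

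Short messages of other kinds moved in the same direction as the members. In Nic-free against Room-air 53.8% of the 80 members of at least 10 mean CPM rose, as did 28.9% of 436 non-members of that level with a main mRNA under 1000 bases. In Nic against Nic-free 88.8% of these members and 52.1% of the short non-members fell. In air against Room-air 62.5% of the members and 39.4% of the short non-members were higher. The median log2 fold changes were 0.40, −0.66 and 0.50 for the members, and 0.18, −0.39 and 0.28 for the short non-members. In 6064 non-members of 3000 bases or more the medians were −0.03, 0.10 and −0.04. In the smoke effect minus the Nic-free effect 25.0% of the members were lower, against 26.6% of the short non-members. What part message length had in the members' differences was not tested.

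**Figure D5:**
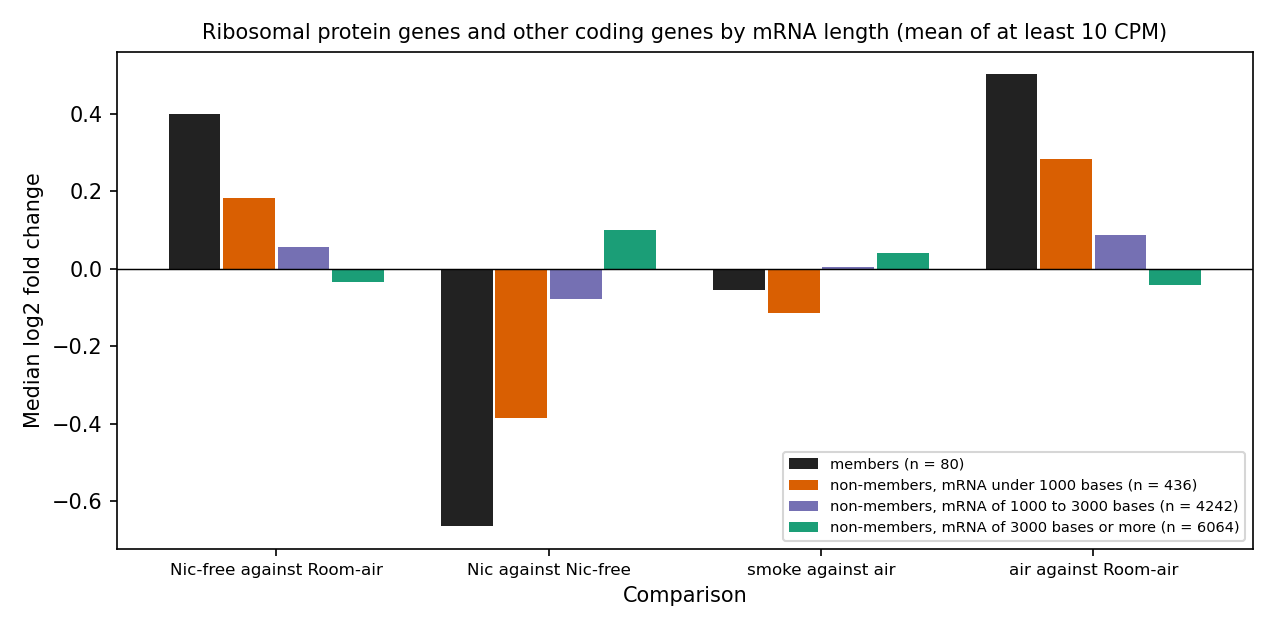
Median log2 fold change (vertical axis) in 4 comparisons (horizontal axis) of the 80 members and of non-members in 3 classes of main mRNA length, all of at least 10 mean CPM. In Nic-free against Room-air, Nic against Nic-free and air against Room-air, the shortest non-members (0.18, −0.39 and 0.28) lie on the members' side of 0 and the longest (−0.03, 0.10 and −0.04) on the other.

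Within the family, calls were counted by length, shared sequence and genomic context. In Nic against Nic-free 23 of 25 members with an mRNA under 700 bases fell, as did 48 of 56 longer ones, with medians of −0.78 and −0.64. Reads of 80 bases from many members could also come from other annotated transcripts, pseudogenes among them, and a median of 42.5% of a member's 80-base stretches were shared, up to 98.5% in Rps27. Counts of such genes are uncertain, because the deposited tables list 0 reads with several alignments and how those were handled is not given in the sources used here. Of genes named above, Rpl23a had 81.3% of its stretches shared and 59.7% of its exon bases overlapped on the other strand. For Rpl31 these were 66.0 and 25.3%. Rpl38 had 35.5% shared and Rpl39 5.82%, both with 0% overlapped on the other strand. In the same comparison 14 of 17 members with under 20% shared fell, as did 57 of 64 with more. Of members whose exons overlap a gene on the other strand 16 of 19 fell, and of those without 55 of 62. Members that host snoRNAs in their introns fell in 26 of 30 cases, the others in 45 of 51.

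Other genes of the pathway were examined from lists. Fau encodes a ribosomal protein made as a fusion with a protein like ubiquitin. Fau rose in Nic-free against Room-air (127 CPM in Nic-free, 96.0 in Room-air; 0.45 ± 0.15, edgeR adjusted p = 0.0445) and fell in Nic against Nic-free (−0.77 ± 0.17, edgeR adjusted p = 0.00475).

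The shares of all genes tested that passed, beside which the counts of these lists and of the marker lists are read, were 11.3% higher and 10.4% lower in Nic-free against Room-air, 12.4% higher and 12.4% lower in Nic against Nic-free, 10.7% higher and 12% lower in air against Room-air, and 1.08% higher and 0.519% lower in smoke against air. Of 18 other genes known for TOP messages, many of them translation factors, 4 rose and 1 fell in Nic-free against Room-air, 1 rose and 10 fell in Nic against Nic-free, and 9 were higher and 1 lower in air against Room-air. Eef1b2, an elongation factor subunit, rose in Nic-free against Room-air (0.36 ± 0.11), fell in Nic against Nic-free (−0.61 ± 0.12) and was higher in air than in Room-air (0.60 ± 0.13). Pabpc1, the poly(A) binding protein, rose in Nic-free, at 261 CPM against 181 CPM in Room-air (0.58 ± 0.11). Vim, the intermediate filament of vessel cells and astrocytes, carries the motif and went the other way in Nic against Nic-free (0.71 ± 0.20). The 10 of 18 lower in Nic against Nic-free and the 9 of 18 higher in air against Room-air are larger shares than those over all genes. So is the fall in Nic against air, where 11 fell and 1 rose, against 14.6% and 15.3% of all genes tested. In smoke against Room-air 4 were higher and 0 lower, where 3.54% of all genes tested were higher and 2.66% lower. Other counts of this list are small.

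Factors that build ribosomes passed in shares near to or below those of all genes in Nic-free against Room-air, Nic against Nic-free and air against Room-air. In Nic against air, however, 9 of 30 fell and 1 rose, where 14.6% of all genes tested fell and 15.3% rose. The share that fell there was larger than that over all genes. Of 30 biogenesis genes, 5 rose and 1 fell in Nic-free against Room-air, 3 rose and 3 fell in Nic against Nic-free, and 4 were higher and 0 lower in air against Room-air, with medians of 0.01, −0.11 and 0.13. Nhp2, a protein of the snoRNPs that pseudouridylate rRNA, did follow the members, at 0.52 ± 0.09, −0.87 ± 0.10 and 0.64 ± 0.12 in those comparisons. Heatr1, which promotes transcription of rRNA, went the other way, at −0.39 ± 0.09 in Nic-free against Room-air and 0.58 ± 0.10 in Nic against Nic-free. Counts for RNA polymerase I were small. Of its 14 genes and factors, 3 rose and 2 fell in Nic-free against Room-air and 1 rose and 2 fell in Nic against Nic-free. Polr1a, its largest subunit, was lower in Nic-free than in Room-air (−0.46 ± 0.11), as was Taf1a (−0.69 ± 0.09). Twistnb (0.75 ± 0.11) and Taf1d (0.71 ± 0.15) were higher there. In Nic against Nic-free Twistnb (−0.35 ± 0.12) and Cd3eap (−0.52 ± 0.13) fell and Taf1a rose (0.60 ± 0.10).

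Of 15 genes around mTORC1 and LARP1, 0 rose and 2 fell in Nic-free against Room-air, and 1 rose and 1 fell in Nic against Nic-free. Mtor itself was lower in Nic-free than in Room-air (−0.29 ± 0.07) and higher in Nic than in Nic-free (0.26 ± 0.08). In air against Room-air 1 gene of the list was higher and 3 were lower. Larp1 was among the lower (−0.31 ± 0.10), and Rps6kb2 was the higher (0.45 ± 0.13). Eif4ebp2, a repressor of translation that mTORC1 inactivates, averaged 10.6 CPM in smoke and 5.44 CPM in air and was the 1 gene of the list called there (0.97 ± 0.20, edgeR adjusted p = 0.0414). It averaged 11.7 CPM in Room-air, and was lower in air than in Room-air (−1.06 ± 0.22, edgeR adjusted p = 0.00278). The call in smoke against air thus goes with a low value in the air set.

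Markers of other cell types moved alongside the members. In Nic-free against Room-air 8 of 8 neuronal, 4 of 5 oligodendrocyte, 4 of 6 astrocyte and 4 of 6 microglial markers rose, while 4 of 8 endothelial, 1 of 5 pericyte and 1 of 6 choroid plexus and ependyma markers fell. In Nic against Nic-free 6 of 8 neuronal, 4 of 5 oligodendrocyte, 4 of 6 astrocyte and 2 of 6 microglial markers fell, while 5 of 8 endothelial and 4 of 5 pericyte markers rose. In air against Room-air 4 of 8 neuronal and 2 of 5 oligodendrocyte markers were higher, 6 of 8 endothelial, 4 of 5 pericyte and 2 of 5 erythroid markers were lower, and astrocyte and microglial markers had 1 of 6 higher and 1 of 6 lower each. In smoke against air 3 of 8 endothelial and 2 of 5 erythroid markers were higher and 1 of 8 neuronal markers was lower.

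The summed endothelial markers held 0.188 to 0.255% of counts in smoke, 0.237 to 0.416% in Nic, 0.159 to 0.240% in Nic-free, 0.103 to 0.184% in air and 0.227 to 0.309% in Room-air. The summed oligodendrocyte markers held 1.63 to 2.40% in smoke, 0.889 to 1.47% in Nic, 1.84 to 2.01% in Nic-free, 2.24 to 3.13% in air and 1.24 to 1.49% in Room-air, and the neuronal ones 0.523 to 0.872% in smoke, 0.616 to 0.627% in Nic, 0.827 to 0.962% in Nic-free, 0.715 to 0.919% in air and 0.576 to 0.653% in Room-air. The astrocyte markers held 0.308 to 0.545% in smoke, 0.328 to 0.350% in Nic, 0.389 to 0.455% in Nic-free, 0.314 to 0.365% in air and 0.276 to 0.353% in Room-air. The microglial markers held 0.0311 to 0.0444% in smoke, 0.0305 to 0.0421% in Nic, 0.0380 to 0.0442% in Nic-free, 0.0292 to 0.0321% in air and 0.0284 to 0.0344% in Room-air, so both lists lay wholly higher in Nic-free than in Room-air. Pericyte markers held 0.0820 to 0.119% in smoke, 0.118 to 0.211% in Nic, 0.0863 to 0.122% in Nic-free, 0.0542 to 0.0954% in air and 0.111 to 0.139% in Room-air.

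Markers of the choroid plexus and ependyma varied widely within most groups, at 0.175 to 2.65% in smoke, 0.206 to 0.703% in Nic, 0.0865 to 1.83% in Nic-free, 0.367 to 2.45% in air and 1.74 to 2.47% in Room-air. The 3 Nic libraries lay below all Room-air libraries, with a median log2 fold change of −1.89 over the 6 genes in Nic against Room-air. Erythroid markers held 0.0492 to 0.0821% in smoke, 0.0512 to 0.0749% in Nic, 0.0412 to 0.0567% in Nic-free, 0.0329 to 0.0520% in air and 0.0418 to 0.0617% in Room-air. No gene of any marker list was at 0 in all libraries. Oligodendrocyte markers and the members shared the order of their highest and lowest groups, air and Nic. The part of cell composition in the members' differences was not tested.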

How the data were processed

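The authors deposited raw read counts for each Ensembl gene, in 1 table for each of the 19 libraries. Per the submitters' processing notes, the authors used STAR, HTSeq and the build mm10, with versions and strand setting not given in the sources used here. Summary lines stayed out of totals. Names, lengths and the members' coordinates came from GENCODE M21 (GRCm38). CPM are counts per 1000000 gene counts. Tests used edgeR 4.0.16 in R 4.3.3 (TMM, filterByExpr, robust quasi-likelihood, two-sided, Benjamini-Hochberg over all genes tested). The 11 e-cigarette and Room-air libraries shared 1 fit, smoke and air another of 8, and comparisons across these sets came from a fit of all 19. The code was tested on simulated data. Alternatives were DESeq2 1.42.0, other scalings, no filter, a replicate block and leaving out each library. Same-numbered libraries were taken as unpaired. Named members were 12 chosen by role, the paralog pairs, and in each comparison the 3 highest and 3 lowest log2 fold changes among members called at a mean of at least 10 CPM. The named members and the lists were chosen with earlier results of these data known, while the rule for the whole family used names only. Some genes that these rules name are not reported here.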

Additional observations from a re-analysis of the deposited data

Results flagged for a closer look

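In Nic-free, Rpl22l1 was at 26.4 CPM in replicate 1, set apart from the 30.7 to 31.2 CPM of the others. In Room-air, Rpl39 was at 34.2 CPM in replicate 1, against 37.0 to 37.2 CPM in the others, and Rpl6 was at 117 CPM in replicate 2, against 138 to 141 CPM in the others. In air, the single count of Rpl10l gave 0.102 CPM in replicate 2, with 0 in the others. Chance sets apart a library in about 1 of 20 such groups, and 136 groups were examined. The smoke effect, taken against air, and the Nic-free effect, taken against Room-air, differed in 20 members by the direct test of that difference. The contrast uses a different air set for each effect, and air and Room-air differ by a median of 0.50 over the members, while against the same Room-air libraries the medians were 0.45 in smoke and 0.40 in Nic-free.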

How the results depend on the processing

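Of 115 calls of a named member, 0 changed direction under the alternatives run and 73 held in all of them, though 0 of 10 did in smoke against Room-air. In Nic-free against air, where no member was called, the few calls under alternatives went both ways. Leaving out single libraries moved the counts of members called to 23 to 42 in Nic-free against Room-air, 0 to 52 in Nic against Room-air, 46 to 77 in Nic against Nic-free, 33 to 54 in air against Room-air, 0 to 1 in Nic-free against air, 0 to 54 in smoke against Room-air, 0 to 12 in the smoke effect minus the Nic effect and 13 to 45 in the smoke effect minus the Nic-free effect. With DESeq2 the counts were 2 lower in Nic against Room-air (all genes 5.69%) and 1 lower in smoke against air (2.55%). They were 2 lower in Nic-free against air (2.57%) and 38 higher in smoke against Room-air (5.49%). The fit of all 19 libraries gave 27 in Nic-free against Room-air, where 9.86% of all genes tested were higher. A fit of only the groups compared gave 2, both higher, in Nic-free against air (all genes 5.43% higher). In smoke against Room-air it gave 1 (0.309%), and no filter gave 10 there (1.45%). Over all reads in the files, in place of reads in genes, the members' shares were 1.07% in smoke, 0.621% in Nic, 0.865% in Nic-free, 1.08% in air and 0.793% in Room-air. Equal replicate numbers showed no common pairing (deviations of same-numbered libraries correlated at −0.49 to 0.36). With the replicate block 38 members were higher in Nic-free against Room-air (all genes 9.69%) and 70 lower in Nic against Nic-free (9.96%). In air against Room-air 47 were higher (9.9%), and in Nic against air 69 were lower (13.6%). In smoke against Room-air 14 were higher (2.95%), and in the smoke effect minus the Nic-free effect 18 were lower (9.40%). The causes of these shifts were not tested. At depths of 7.94 to 30.2 M counts, Rpl10l and Rpl39l were too low to be tested.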
